A study of Mus musculus with 20 samples.

Results

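The genes described here are 10 genes of neural precursors and newborn neurons, chosen by name out of the 24528 genes of the deposited table: Sox2, Mki67, Top2a, Brinp1, Eomes, Neurod1, Igfbpl1, Sox4, Sox11 and Dcx. All 10 passed the filter on low values, as did 17863 genes in all. They were compared in the 4 groups formed by brain region and genotype at 18 months of age. TDP-43KQ/KQ mice (KQ) are homozygous for a lysine-to-glutamine substitution that mimics acetylation of TDP-43. It was placed in the endogenous Tardbp gene by CRISPR/Cas9 in C57BL/6J zygotes, so it is present in every cell of the animal, and the line was kept as heterozygotes from a founder. TDP-43wt mice (WT) have the unmodified gene, and no animal received an agent. RNA from which ribosomal RNA had been removed was sequenced for the hippocampus of KQ mice (5 libraries) and WT mice (4 libraries) and for the neocortex of KQ mice (6 libraries) and WT mice (5 libraries), with both sexes in each group. The labels do not say which libraries of the regions are from the same mouse; the female libraries match in genotype, number and litter, so some libraries are probably not independent across regions.

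New neurons in the adult rodent brain arise from stem cells in the subgranular zone of the dentate gyrus, which lies within the hippocampus, and in the subventricular zone of the lateral ventricles, whose neuroblasts migrate to the olfactory bulb. In the dentate gyrus, radial stem cells that express Sox2 give rise to dividing intermediate progenitors that express Eomes (Tbr2) and Neurod1, and these become Dcx-positive immature granule neurons. The number of such cells falls steeply with age in mice, and several of these genes are active outside the lineage too. Sox2 is also expressed in astrocytes and in oligodendrocyte precursors. In bulk tissue, fewer cells of a type and less RNA per cell cannot be told apart.

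Each deposited value is a variance-stabilized read abundance on a scale like log2, from which the authors had removed the effects of sex and litter, and which is given relative to the mean of the gene over the KQ neocortex libraries. The values of a gene can be compared between libraries but not with those of another gene. The table holds no read depth, so the precision of a value comes from the spread between libraries. Differences were tested with limma over all 17863 genes in a model of the 4 groups with sex and litter, and a gene passed when its p-value, adjusted for all genes by the Benjamini-Hochberg method, was under 0.05. In the text, ± after a difference is its standard error, and ± after a group mean is the SD between libraries.

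The removal of litter left its mark on 3 libraries. WT neocortex male 1 is the only library of its litter, so its value is the mean of its group for every gene and carries no information of its own. Leaving it out of the model changes no result. KQ female 2 of the hippocampus and KQ female 2 of the neocortex are the only libraries of another litter, and their deviations from their group means mirror each other. Leaving out either of them gives the same fit. Tardbp, the targeted gene, separated the genotypes: it rose in KQ mice by 0.83 ± 0.095 in the hippocampus (adjusted p = 0.00163) and by 1.00 ± 0.089 in the neocortex (adjusted p = 1.17e-04). The regions were separated by 10 hippocampus genes including Prox1, a transcription factor of granule neurons. Their mean was 1.75 to 2.04 in the KQ hippocampus and 2.09 to 2.17 in the WT hippocampus, against -0.11 to 0.18 in the KQ neocortex and -0.026 to 0.080 in the WT neocortex.

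TDP-43 binds RNA with a preference for UG repeats, so the protein-coding transcripts of the 10 genes were searched for their longest run of the dinucleotide TG (UG in RNA) in the sense of the RNA (the opposite strand was not searched), in the GENCODE annotation of GRCm38. Dcx had the longest run, of 20 repeats in its 3' UTR. Sox11 (3' UTR) and Brinp1 (coding sequence) had runs of 4 repeats, and the runs of the other 7 genes had 2 or 3. Runs of at least 4 repeats were found in 3 of the 10 genes and in 23.5% of all 21877 protein-coding genes searched, and runs of at least 5 repeats in 1 of the 10 and in 10.3% of all. Introns were not searched, and a run is a match of letters and not a site of binding. The windows of 30 bases below hold the 3 longest runs, with the run in capitals (for Dcx its first 24 bases of 40). The window of Dcx lies at chrX:143861932-143861961, that of Sox11 at chr12:27339722-27339751 and that of Brinp1 at chr4:68763037-68763066, all on the minus strand of GRCm38.
Dcx: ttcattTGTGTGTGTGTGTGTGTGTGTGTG
Sox11: ttgggttttttTGTGTGTGctgaagtctgt
Brinp1: gccagaggagtTGTGTGTGccatggtagca

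In the comparison of genotypes, which asks whether the substitution changed these genes in the aged brain, none of the 10 genes passed the threshold in either region. In the hippocampus the test called 69 genes (0.386% of those tested) and in the neocortex 40 genes (0.224%). Sox2 and Brinp1 came closest: both were lower in every KQ library than in every WT library, in both regions. The hippocampus values of KQ and WT libraries did not overlap for 3 of the 10 genes (Sox2 and Brinp1 lower in KQ, Sox11 higher), which was so for 9.63% of all genes tested. In the neocortex this held for 3 of the 10 (Sox2 and Brinp1 lower in KQ, Neurod1 higher) and for 8.63% of all genes. Groups that were lower without overlap in both regions were found for 2 of the 10 genes and for 1.21% of all. The same pairs of groups stayed apart without the 3 libraries described above. With an unadjusted p under 0.05, 2 of the 10 genes (Sox2 and Brinp1) were lower in each region, against 7.65% of all genes in the hippocampus, 6.95% in the neocortex and 2.32% in both. As the 10 genes were chosen with earlier results of these data known, these shares are a description of them and no test. The study's own test, DESeq2 corrected for sex and litter, reported more genes in each region than the 69 and 40 called here. It named Brinp1, Rnd2 and Sox10 as examples of genes lower in both regions, and Gad1 and Gad2 in the neocortex. A gene that did not pass here may thus have passed there, and the cause of this gap was not tested.

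**Figure D1:**
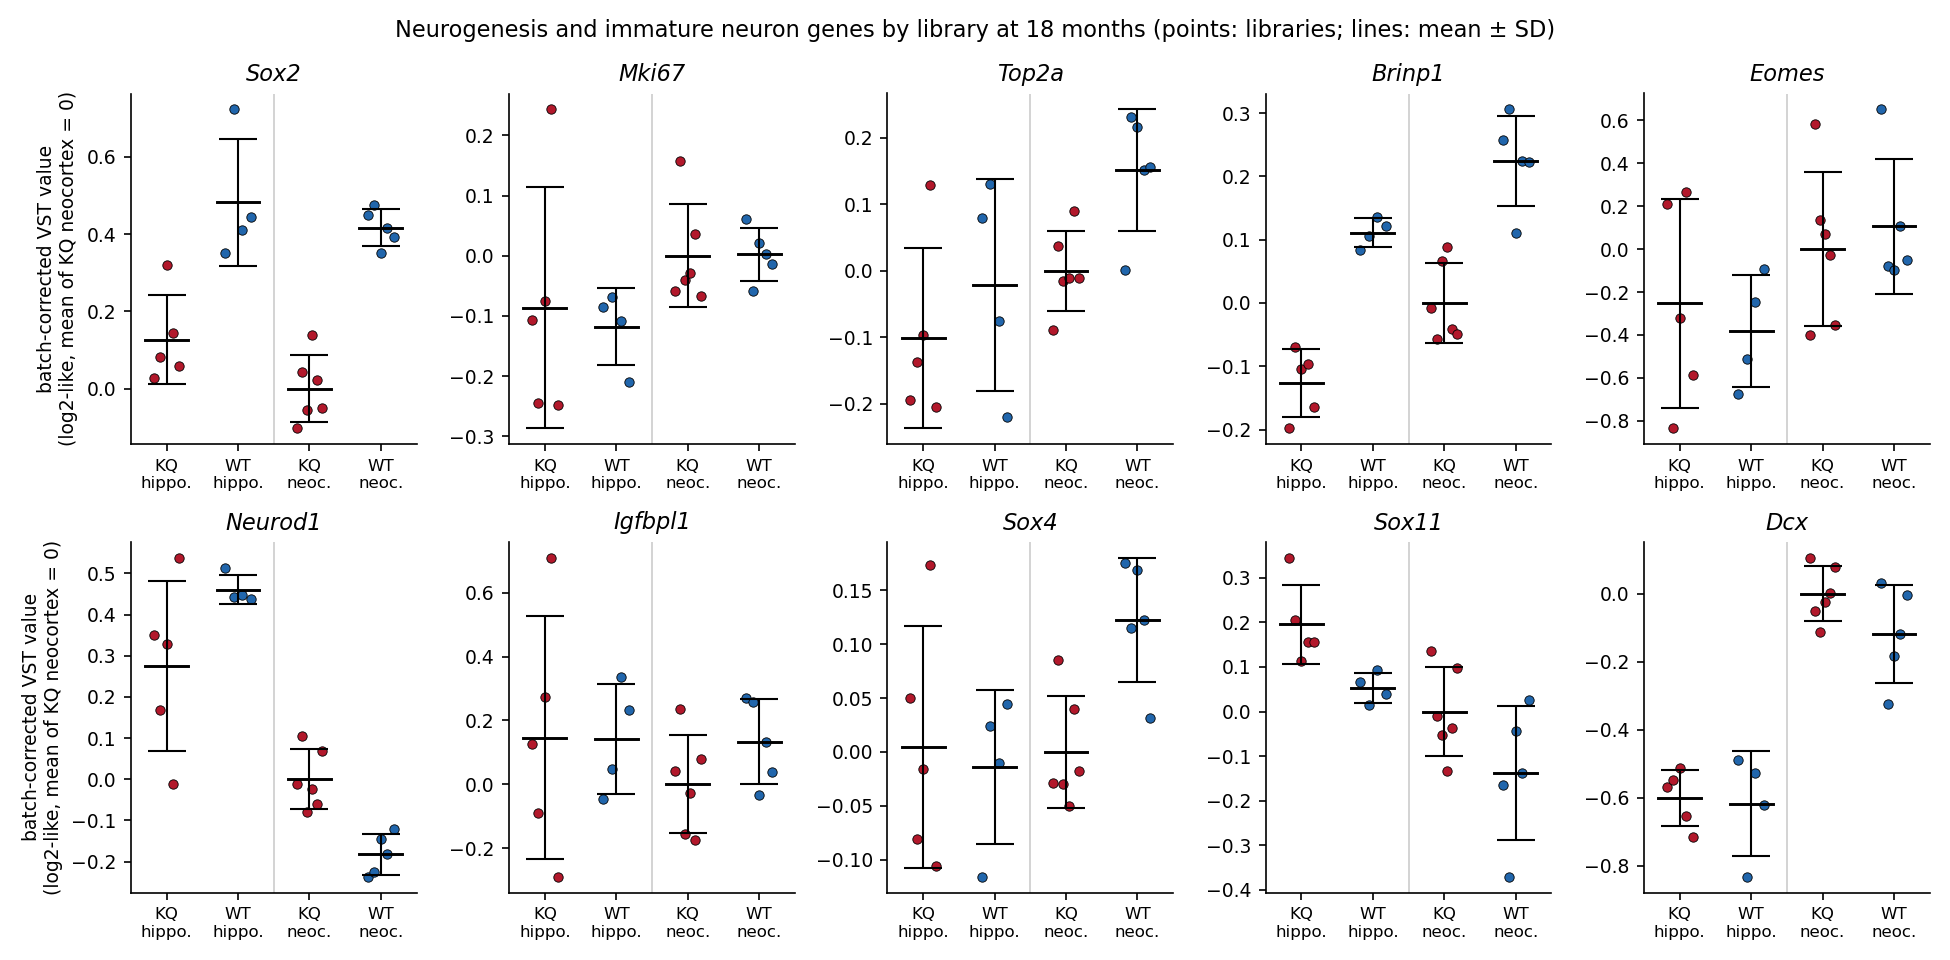
Batch-corrected values of the 10 genes (vertical axis, log2-like, relative to the mean over the KQ neocortex) in each library (points) of the KQ and WT hippocampus and the KQ and WT neocortex, with group means and SD (lines); the vertical scale differs between panels. The KQ libraries lie below all WT libraries of the same region for Sox2 and Brinp1, and the hippocampus libraries lie below all neocortex libraries for Dcx.

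Sox2 (chr3:34650405-34652461, plus strand) encodes a transcription factor that keeps neural stem cells in an undifferentiated, self-renewing state. In the KQ hippocampus it had values of 0.029, 0.083 and 0.32 in females 1 to 3 and 0.14 and 0.060 in males 1 and 2, against 0.35, 0.72 and 0.41 in females 1 to 3 and 0.44 in male 1 of the WT hippocampus. In the KQ neocortex it ran from -0.10 through a median of -0.013 to 0.14, against 0.45, 0.47 and 0.35 in females 1 to 3 and 0.42 and 0.39 in males 1 and 2 of the WT neocortex. Every KQ library was thus below every WT library of its region, most narrowly between KQ female 3 and WT female 1 of the hippocampus. The difference was -0.355 ± 0.088 in the hippocampus (adjusted p = 0.0959) and -0.42 ± 0.082 in the neocortex (adjusted p = 0.0508), and neither passed. Their 95% intervals ran from -0.54 to -0.17 and from -0.59 to -0.24. Of the 20 fits without 1 library, Sox2 passed in the hippocampus without KQ female 3 of that region (adjusted p = 0.0296) or without KQ male 1 of the neocortex (0.0391), and in the neocortex without KQ male 1 of that region (0.0153) or without WT female 2 (0.0159) or KQ female 3 (0.031) of the hippocampus. Over those 20 fits its adjusted p ran from 0.0296 to 0.568 in the hippocampus and from 0.0153 to 0.216 in the neocortex.

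Litters are the batches that the labels give, and the difference in Sox2 had the same sign in each litter that held both genotypes. In the hippocampus it was -0.27 within litter 5 (3 KQ and 1 WT libraries) and -0.51 within litter 6 (1 KQ and 2 WT libraries). In the neocortex it was -0.21 within litter 4 (1 KQ and 1 WT libraries), -0.42 within litter 5 (3 KQ and 1 WT libraries) and -0.56 within litter 6 (1 KQ and 2 WT libraries). These values have no test of their own, and those of the regions are probably not independent, as they may share mice. In litter 4 the KQ library was from a male and the WT library from a female. The difference between the regions in the KQ effect on Sox2 was 0.062 ± 0.11 (95% interval from -0.18 to 0.30).

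Markers of other cells that express Sox2 are given beside it; only their differences can be read, since the centred values hold no level. The mean of 12 astrocyte markers was 0.18 to 0.33 in the KQ hippocampus and 0.31 to 0.55 in the WT hippocampus, and -0.13 to 0.11 in the KQ neocortex and 0.11 to 0.20 in the WT neocortex. None of the 12 passed the test in either region, and their median difference was -0.15 in the hippocampus and -0.12 in the neocortex, against -0.0010 and -0.0017 over all genes tested. In the KQ hippocampus 10 were lower and 2 higher, namely Gjb6 (0.11 ± 0.10) and Aqp4 (0.072 ± 0.12). All 12 were lower in the KQ neocortex. Sox9, a transcription factor of astrocytes and stem cells, differed by -0.39 ± 0.12 in the hippocampus (adjusted p = 0.179) and by -0.40 ± 0.11 in the neocortex (adjusted p = 0.168). The mean of 10 oligodendrocyte precursor markers was 0.10 to 0.19 in the KQ hippocampus and 0.23 to 0.36 in the WT hippocampus, and -0.056 to 0.099 in the KQ neocortex and 0.054 to 0.093 in the WT neocortex. Their median difference was -0.13 in the hippocampus (2 higher and 8 lower in KQ) and -0.056 in the neocortex (3 higher and 7 lower). Of these 10, Nkx2-2, a transcription factor of the oligodendrocyte lineage, fell by 0.42 ± 0.058 in the hippocampus (adjusted p = 0.00576) and by 0.29 ± 0.054 in the neocortex (adjusted p = 0.0449). Sox10, which drives the oligodendrocyte programme, fell by 0.53 ± 0.085 in the hippocampus (adjusted p = 0.0155) and differed by -0.34 ± 0.079 in the neocortex (adjusted p = 0.0872). No other gene of the 10 passed in either region. The 3 that were higher in the KQ neocortex were Vcan (0.23 ± 0.12), Cspg4 (0.093 ± 0.10) and Neu4 (0.017 ± 0.084). Pdgfra differed there by -0.043 ± 0.059. The part of these cells in the difference in Sox2 was not tested.

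**Figure D2:**
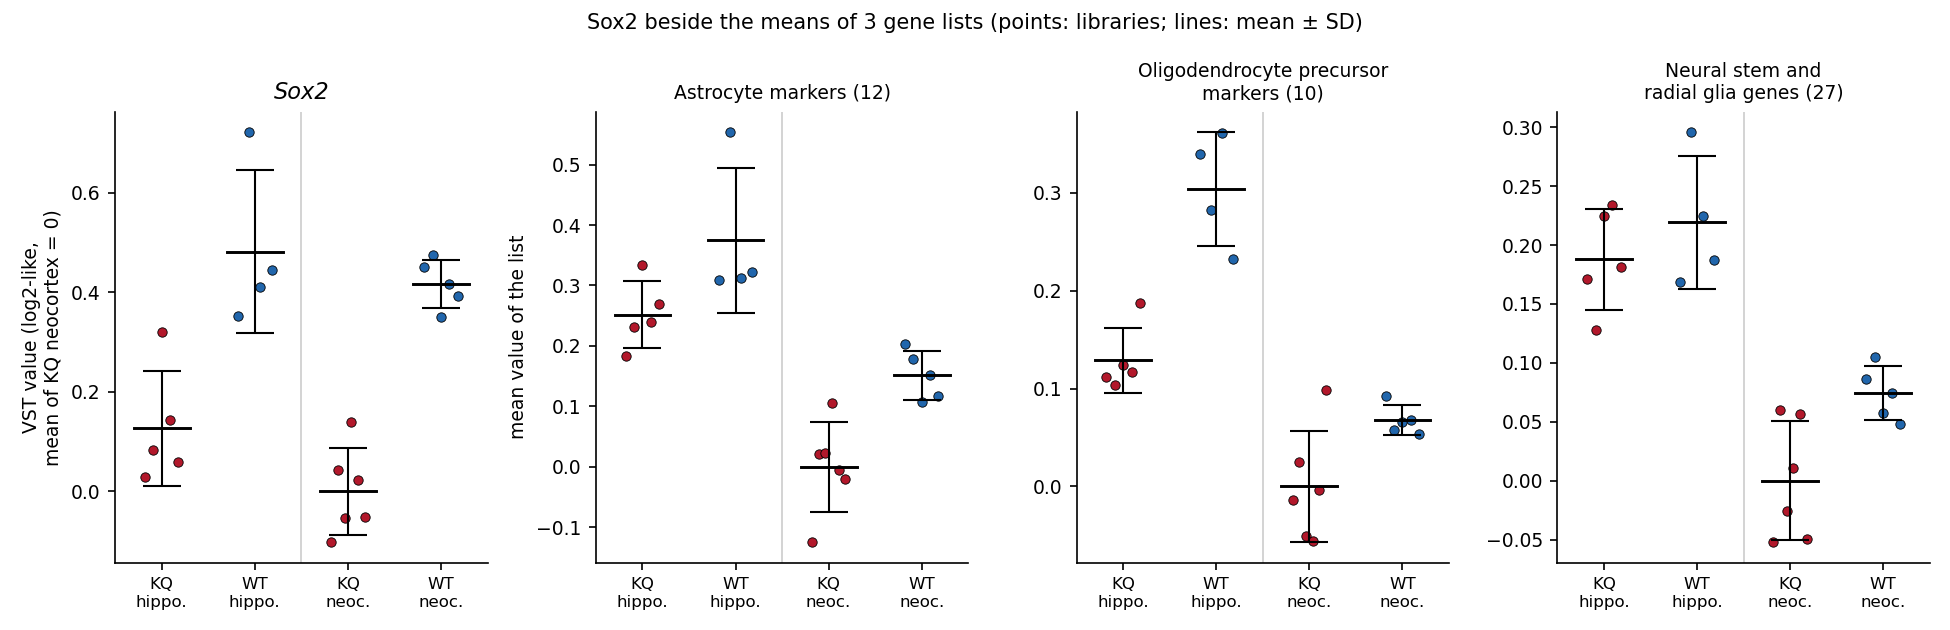
Sox2 (left, log2-like value) and the mean value of 12 astrocyte markers, 10 oligodendrocyte precursor markers and 27 neural stem and radial glia genes (Sox2 among them) in each library (points) of the KQ and WT hippocampus and the KQ and WT neocortex, with group means and SD (lines). The KQ and WT hippocampus are apart for Sox2 and the oligodendrocyte precursor markers, and the astrocyte and stem cell lists overlap there. The KQ and WT neocortex are apart for Sox2 and, narrowly, the astrocyte markers (KQ up to 0.105, WT from 0.107). The precursor and stem cell lists overlap in the neocortex.

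Brinp1 (chr4:68761514-68954397, minus strand) encodes a protein of neurons that slows the cell cycle when it is expressed in dividing cells, and it is widely expressed in the mature brain. In the KQ hippocampus it had values of -0.20, -0.070 and -0.10 in females 1 to 3 and -0.096 and -0.16 in males 1 and 2, against 0.083, 0.11 and 0.14 in females 1 to 3 and 0.12 in male 1 of the WT hippocampus. In the KQ neocortex it ran from -0.057 through a median of -0.025 to 0.089, against 0.26, 0.31 and 0.11 in females 1 to 3 and 0.22 and 0.22 in males 1 and 2 of the WT neocortex. All KQ libraries were below all WT libraries of the same region, in the neocortex by a narrow gap between KQ male 1 and WT female 3. The study's own test named Brinp1 as lower in both regions. In the joint model used here the difference was -0.24 ± 0.054 in the hippocampus (adjusted p = 0.0756) and -0.22 ± 0.051 in the neocortex (adjusted p = 0.0757), and neither passed. It passed in both regions without KQ male 1 of the neocortex (adjusted p = 0.0267 in the hippocampus and 0.0240 in the neocortex), and over the 20 fits without 1 library its adjusted p ran from 0.0267 to 0.477 in the hippocampus and from 0.0240 to 0.286 in the neocortex.

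Within litters the difference in Brinp1 was -0.24 and -0.29 in the hippocampus (litters 5 and 6). In the neocortex it was -0.022, -0.23 and -0.29 (litters 4, 5 and 6), so that the litter with 1 library of each genotype, from mice of opposite sex, showed the smallest difference. Brinp1 was the least variable of the 10 genes, with a within-group SD of 0.0575 against a median of 0.0731 over all genes tested. Its relatives Brinp2 and Brinp3, which are also expressed in neurons, did not pass: Brinp2 differed by -0.098 ± 0.065 in the hippocampus and 0.026 ± 0.061 in the neocortex, and Brinp3 by -0.083 ± 0.089 and -0.12 ± 0.083. The mean of 7 markers of mature neurons was -0.42 to -0.26 in the KQ hippocampus and -0.17 to -0.11 in the WT hippocampus, and -0.051 to 0.039 in the KQ neocortex and -0.025 to 0.081 in the WT neocortex. All 7 were lower in the KQ hippocampus (median difference -0.15), and in the KQ neocortex 4 were lower and 3 higher (median -0.016). None of the 7 passed, and their part in the difference in Brinp1 was not tested.

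**Figure D3:**
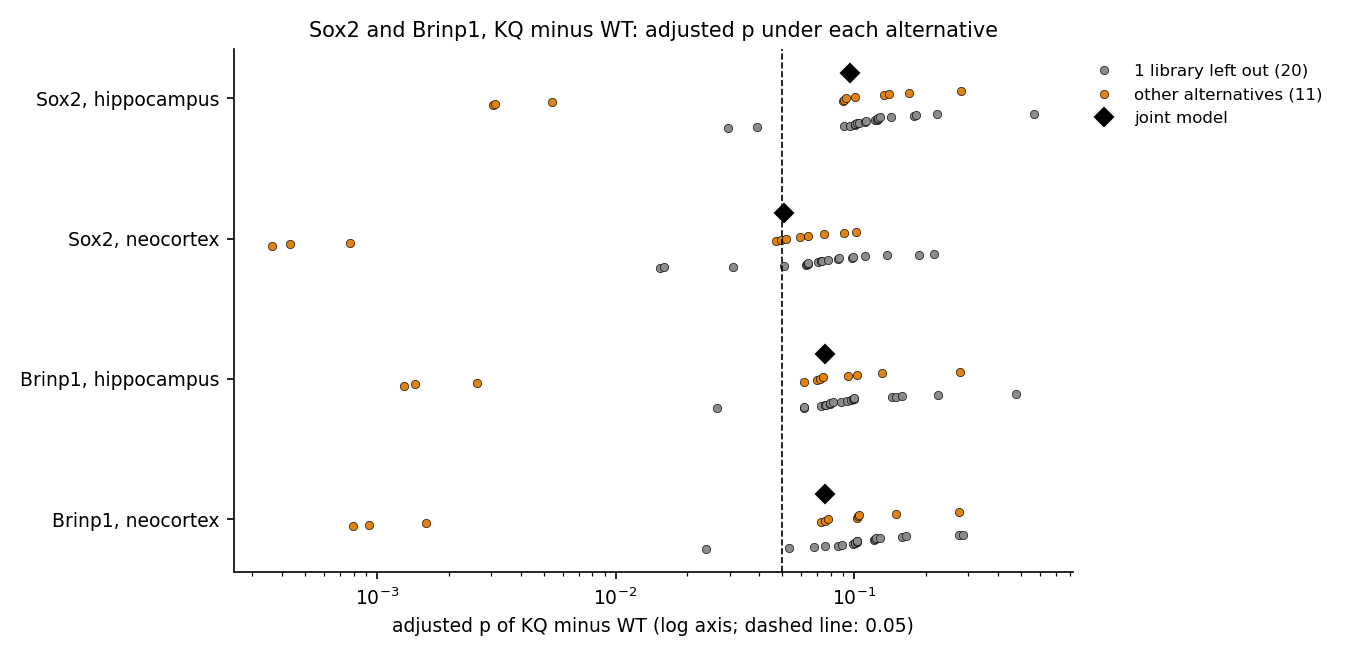
Adjusted p of the KQ minus WT difference in Sox2 and Brinp1 (horizontal log axis) in the joint model (diamonds), in 11 alternative fits (orange) and in 20 fits that each leave out 1 library (grey), with the threshold of 0.05 as a dashed line. The 3 alternatives to the left in each row leave out litter as a fixed term, and most of the other points lie above the threshold.

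Mki67 and Top2a mark dividing cells: Mki67 encodes the proliferation antigen Ki-67 and Top2a (chr11:98992943-99024189) the topoisomerase that untangles DNA in replication and mitosis. Mki67 (chr7:135689784-135716361) ran from -0.25 to 0.24 in the KQ hippocampus and from -0.21 to -0.069 in the WT hippocampus, and from -0.067 to 0.16 in the KQ neocortex and from -0.059 to 0.061 in the WT neocortex. Its groups overlapped, with a difference of 0.031 ± 0.095 in the hippocampus (95% interval from -0.17 to 0.23) and of -0.0023 ± 0.089 in the neocortex (from -0.19 to 0.19). Top2a ran from -0.20 to 0.13 in the KQ hippocampus and from -0.22 to 0.13 in the WT hippocampus, and from -0.090 to 0.090 in the KQ neocortex and from 0.00057 to 0.23 in the WT neocortex. It differed by -0.080 ± 0.092 in the hippocampus (adjusted p = 0.724) and by -0.15 ± 0.086 in the neocortex (adjusted p = 0.413).

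The wider list of 40 cell cycle genes, which holds both, showed no call in either region. Its median difference was -0.010 in the hippocampus and -0.015 in the neocortex, with 21 and 26 of the 40 genes lower in KQ. The genes of the list with the lowest p were Ccne2, a cyclin of the start of DNA replication, with 0.22 ± 0.064 in the hippocampus (adjusted p = 0.151), and Racgap1, a protein of cell division, with 0.15 ± 0.052 in the neocortex (adjusted p = 0.236). Mcm5, a subunit of the replicative helicase, was next in both, with -0.15 ± 0.048 in the hippocampus (adjusted p = 0.178) and -0.11 ± 0.045 in the neocortex (adjusted p = 0.297).

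Eomes (chr9:118478212-118486132, plus strand) encodes a T-box transcription factor of intermediate progenitors and was the most variable of the 10 genes. Its within-group SD of 0.37 was higher than that of 99.1% of the genes tested. It had values of 0.21, -0.83 and -0.32 in females 1 to 3 and 0.27 and -0.59 in males 1 and 2 of the KQ hippocampus, against -0.67, -0.51, -0.25 and -0.092 in females 1 to 3 and male 1 of the WT hippocampus. In the neocortex it ran from -0.40 to 0.58 in KQ libraries and from -0.098 to 0.65 in WT libraries. The groups overlapped throughout, and the intervals of the differences (-0.48 to 0.74 in the hippocampus, -0.68 to 0.46 in the neocortex) were the widest among the 10 genes.

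Neurod1 (chr2:79452521-79456751, minus strand) encodes a basic helix-loop-helix factor that drives progenitors of granule neurons to differentiate and is needed for the survival of newborn granule neurons. In the KQ hippocampus it had values of 0.35, 0.17 and 0.33 in females 1 to 3 and -0.012 and 0.54 in males 1 and 2, against 0.51, 0.44 and 0.45 in females 1 to 3 and 0.44 in male 1 of the WT hippocampus. In the KQ neocortex it ran from -0.079 through a median of -0.018 to 0.11, against -0.24, -0.22 and -0.14 in females 1 to 3 and -0.18 and -0.12 in males 1 and 2 of the WT neocortex. The KQ neocortex libraries were thus all above the WT neocortex libraries, while 4 of the 5 KQ hippocampus libraries were below the WT hippocampus libraries and KQ male 2 was above them. The difference was -0.19 ± 0.094 in the hippocampus (adjusted p = 0.374) and 0.18 ± 0.088 in the neocortex (adjusted p = 0.355), and neither passed.

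The KQ effect on Neurod1 differed between hippocampus and neocortex by -0.37 ± 0.12, with an unadjusted p of 0.00783 and an adjusted p of 0.783, which did not pass. No gene passed in this test of the difference (0 of 17863), and 1041 genes (5.83%) had an unadjusted p under 0.05, among them Neurod1 alone of the 10. Within litters the difference in Neurod1 was -0.15 and -0.13 in the hippocampus (litters 5 and 6) and 0.12, 0.098 and 0.22 in the neocortex (litters 4, 5 and 6). A list of 10 genes for dentate granule neurons held Prox1 and Calb1, and also genes not specific to them, such as Neurod2 and Neurod6. Its mean was 1.25 to 1.61 in the KQ hippocampus and 1.62 to 1.73 in the WT hippocampus. Of the 10, 9 were lower and 1 higher in the KQ hippocampus (median difference -0.23), and 6 were lower and 4 higher in the KQ neocortex (median -0.021). The part of these genes in the Neurod1 values was not tested. No gene of this list passed in either region. Its lowest p in the hippocampus belonged to Lct (-0.45 ± 0.11, adjusted p = 0.0990) and C1ql2, a synaptic protein of granule neurons (-0.46 ± 0.17, adjusted p = 0.243). In the neocortex, Neurod2, a relative of Neurod1 in excitatory neurons, differed by 0.36 ± 0.078 (adjusted p = 0.0644) and Neurod6 by -0.24 ± 0.11 (adjusted p = 0.346).

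**Figure D4:**
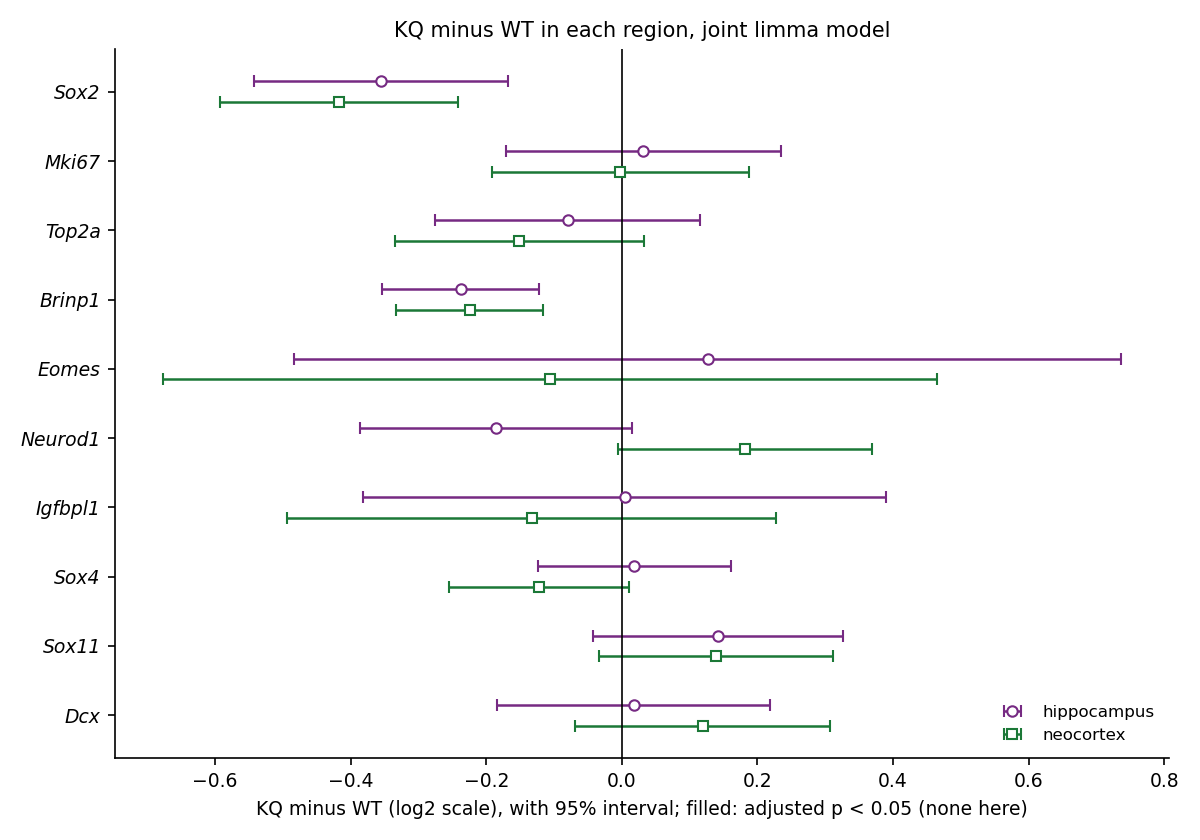
Difference between KQ and WT (horizontal axis, log2 scale) in the hippocampus (circles) and the neocortex (squares) for the 10 genes, with 95% intervals from the joint limma model. The intervals of Sox2 and Brinp1 lie below 0 in both regions, those of the other 8 genes include 0, and no gene passed after adjustment.

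Igfbpl1, Sox4, Sox11 and Dcx are switched on as progenitors become neurons. Sox4 (chr13:28948919-28953713) and Sox11 (chr12:27334264-27342574), both on the minus strand, encode related transcription factors that turn on genes of immature neurons. Sox11 had values of 0.34, 0.21 and 0.11 in females 1 to 3 and 0.16 and 0.16 in males 1 and 2 of the KQ hippocampus, against 0.066, 0.015, 0.093 and 0.040 in females 1 to 3 and male 1 of the WT hippocampus. In the KQ neocortex it ran from -0.13 through a median of -0.024 to 0.13, against -0.16, -0.37 and -0.044 in females 1 to 3 and -0.14 and 0.025 in males 1 and 2 of the WT neocortex. The hippocampus groups did not overlap, with KQ higher, and the neocortex groups did. The difference was 0.14 ± 0.087 in the hippocampus (adjusted p = 0.463) and 0.14 ± 0.081 in the neocortex (adjusted p = 0.425). Within litters it was 0.10 and 0.30 in the hippocampus (litters 5 and 6) and -0.089, -0.022 and 0.40 in the neocortex (litters 4, 5 and 6), so its sign differed between the litters of the neocortex.

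Sox4 ran from -0.11 to 0.17 in the KQ hippocampus and from -0.12 to 0.044 in the WT hippocampus, and from -0.050 to 0.085 in the KQ neocortex and from 0.032 to 0.17 in the WT neocortex. It differed by 0.019 ± 0.066 in the hippocampus (adjusted p = 0.922) and by -0.12 ± 0.062 in the neocortex (adjusted p = 0.368). Igfbpl1 (chr4:45809468-45826923, minus strand), a secreted protein related to the insulin-like growth factor binding proteins and a marker of newborn neurons, ran from -0.29 to 0.71 in the KQ hippocampus and from -0.046 to 0.34 in the WT hippocampus, and from -0.17 to 0.24 in the KQ neocortex and from -0.032 to 0.27 in the WT neocortex. All these groups overlapped, and Igfbpl1 differed by 0.0042 ± 0.18 in the hippocampus and by -0.13 ± 0.17 in the neocortex (adjusted p = 0.995 and 0.728).

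Dcx (chrX:143855842-143933311, minus strand) encodes doublecortin, a microtubule-binding protein of migrating neuroblasts and immature neurons. It had values of -0.57, -0.55 and -0.51 in females 1 to 3 and -0.65 and -0.72 in males 1 and 2 of the KQ hippocampus, against -0.49, -0.83, -0.53 and -0.62 in females 1 to 3 and male 1 of the WT hippocampus. In the KQ neocortex it ran from -0.11 through a median of -0.011 to 0.11, against 0.033, -0.32 and -0.18 in females 1 to 3 and -0.12 and -0.0035 in males 1 and 2 of the WT neocortex. The genotypes overlapped in both regions. The KQ effect was 0.018 ± 0.094 in the hippocampus (95% interval from -0.18 to 0.22) and 0.12 ± 0.088 in the neocortex (from -0.069 to 0.31).

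1 library stood out for several of these genes at once. KQ hippocampus male 1 had the highest value of its group for Igfbpl1 (0.71), Eomes (0.27), Mki67 (0.24), Sox4 (0.17) and Top2a (0.13), and the lowest for Neurod1 (-0.012). After the group means were subtracted, Sox4 correlated over the 20 libraries with Mki67 (r = 0.74), Eomes (r = 0.74) and Igfbpl1 (r = 0.73), and Igfbpl1 with Mki67 (r = 0.71). Dcx correlated with Sox11 (r = 0.55) and only weakly with Igfbpl1 (r = 0.10), and Sox2 with Brinp1 by r = 0.35. The most negative correlations were those of Sox11 with Brinp1 (r = -0.63) and Sox2 (r = -0.57) and of Neurod1 with Igfbpl1 (r = -0.54), Brinp1 (r = -0.51) and Sox4 (r = -0.51). These correlations are a description: the libraries had litter and sex removed jointly, and those of KQ female 2 mirror each other. Without KQ hippocampus male 1, the KQ effect in the hippocampus changed sign for Igfbpl1 (-0.15 ± 0.14), Mki67 (-0.058 ± 0.063), Sox4 (-0.027 ± 0.059) and Eomes (-0.015 ± 0.28), none of which passed with or without it.

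By pattern over the 20 libraries with group means subtracted, the closest genes were Nfrkb (r = 0.95) and Kcnk10 (r = 0.94) for Dcx, Ctdspl and Gapvd1 (both r = 0.92) for Sox11, Hist1h4b and Hist1h3f (both r = 0.88) for Sox4, and Zic1 (r = 0.96) and A230065H16Rik (r = 0.94) for Igfbpl1. For the progenitor genes they were Srl (r = 0.94) and Nebl (r = 0.87) for Neurod1 and Olfr1507 (r = 0.89) and Ttr (r = 0.87) for Eomes. For the others they were Mctp2 (r = 0.92) and Herc3 (r = 0.85) for Brinp1, Slc39a11 and Ibsp (both r = 0.88) for Mki67, Hist1h3c (r = 0.92) and Csnka2ip (r = 0.86) for Top2a, and Rida and Gspt1 (both r = 0.94) for Sox2. Each was picked as the highest over all genes tested. Ttr is the transport protein made by the choroid plexus, and the mean of 7 choroid plexus markers varied widely: it was 3.65, 0.28 and 1.74 in females 1 to 3 and 2.32 and 2.32 in males 1 and 2 of the KQ hippocampus, and -0.10 to 2.05 in the WT hippocampus. In the neocortex it was -0.91 to 1.78 in KQ and -0.36 to 0.82 in WT libraries. All 7 were higher in the KQ hippocampus, with a median difference of 1.09 against -0.0010 over all genes tested. In the KQ neocortex 3 were higher and 4 lower (median -0.00068). None of the 7 passed between genotypes, and the part of choroid plexus tissue in the Eomes values was not tested.

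Between regions more of the 10 genes passed, at shares near or below those of all genes. In KQ mice 4 of the 10 genes passed between hippocampus and neocortex, where the test called 35.4% of all genes, and in WT mice 2 of the 10, where it called 28.2%. Dcx was lower in the hippocampus in both genotypes: it fell by 0.60 ± 0.079 in KQ mice (adjusted p = 2.81e-05) and by 0.50 ± 0.090 in WT mice (adjusted p = 6.44e-04). All hippocampus libraries were below all neocortex libraries of the same genotype. Neurod1 was higher in the hippocampus, by 0.27 ± 0.079 in KQ mice (adjusted p = 0.0134) and by 0.64 ± 0.090 in WT mice (adjusted p = 6.18e-05). Its groups did not overlap in WT mice and did in KQ mice, where KQ male 1 of the hippocampus lay among the neocortex libraries. The call of Neurod1 in KQ mice was lost without KQ neocortex female 3 (adjusted p = 0.0686), and those of Dcx in both genotypes and of Neurod1 in WT mice held in all 20 fits without 1 library, with adjusted p up to 0.00411 for Dcx and 3.94e-04 for Neurod1 in WT mice.

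The other 2 regional calls in KQ mice were close to the threshold. Sox11 was higher in the hippocampus by 0.20 ± 0.073 (adjusted p = 0.0489), and Brinp1 fell by 0.13 ± 0.046 there (adjusted p = 0.0431). In WT mice the same genes differed by 0.19 ± 0.083 (adjusted p = 0.0993) and by -0.11 ± 0.052 (adjusted p = 0.124), and neither passed. The call of Sox11 was lost in 14 of the 20 fits without 1 library (adjusted p up to 0.183): it held without WT female 2, WT male 1, WT male 2, KQ female 1 or KQ male 3 of the neocortex, or without KQ female 3 of the hippocampus. The fit without WT neocortex male 1 repeats the joint model, so the call could not be lost there. The 14 include the fits without KQ female 2 of either region, which are the same fit (0.0987). The fit without the 3 libraries on which the removal of litter left its mark is that fit again. The call of Sox11 was also lost with no filter on low values (0.0937) and with each library centred on its median (0.0617). The call of Brinp1 was lost in 9 of the 20 (adjusted p up to 0.200), namely without KQ female 1, KQ female 3, WT female 1 or WT male 2 of the neocortex, or without KQ female 1, KQ female 3, KQ male 1, KQ male 2 or WT male 1 of the hippocampus. Without KQ hippocampus male 1, Mki67 passed as lower in the KQ hippocampus (-0.19 ± 0.055, adjusted p = 0.0168), against -0.087 ± 0.080 (adjusted p = 0.436) with it.

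**Figure D5:**
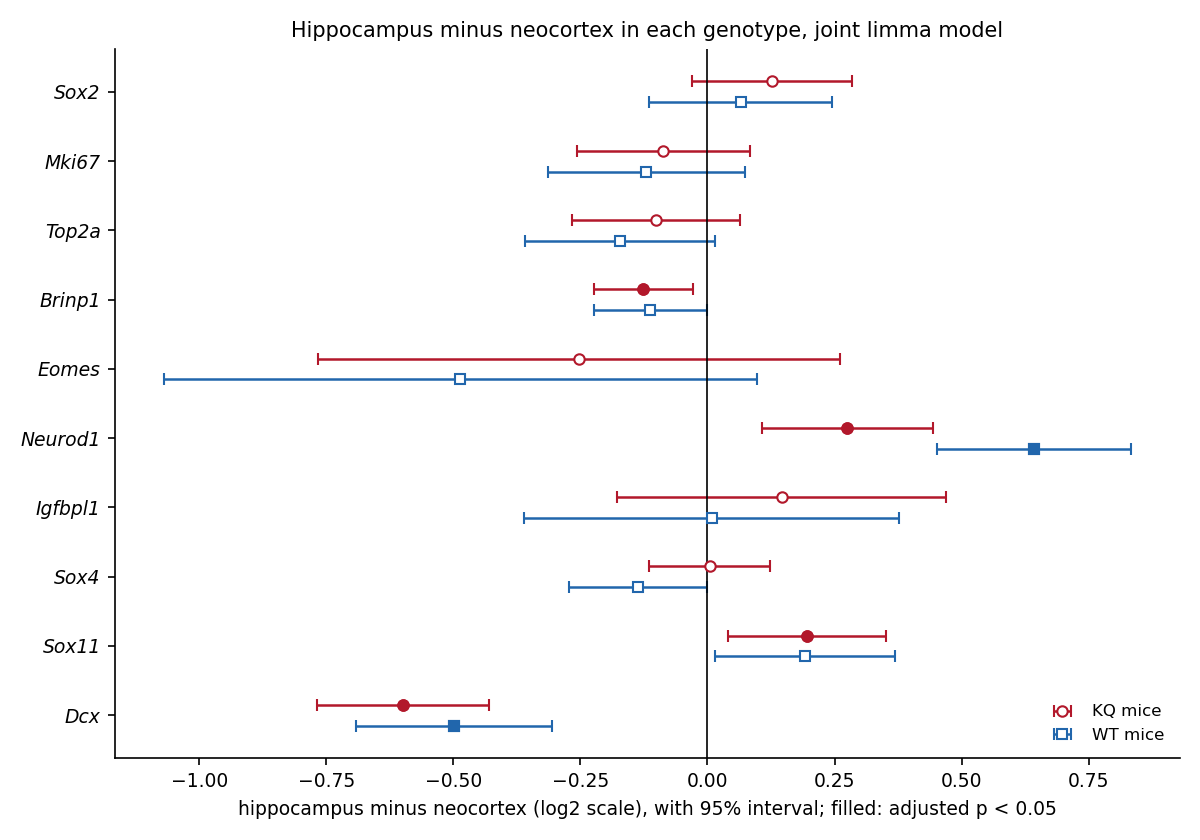
Difference between hippocampus and neocortex (horizontal axis, log2 scale) in KQ mice (circles) and WT mice (squares) for the 10 genes, with 95% intervals; filled symbols passed after adjustment. Dcx lies at -0.60 in KQ and -0.50 in WT mice, and Neurod1 at 0.27 in KQ and 0.64 in WT mice.

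The group means of Sox2 were 0.13 ± 0.12 (n = 5) in the KQ hippocampus and 0.48 ± 0.16 (n = 4) in the WT hippocampus. In the neocortex they were 0 ± 0.087 (n = 6) in KQ and 0.42 ± 0.048 (n = 5) in WT libraries. The WT neocortex n includes male 1, set at the mean of its group by the removal of litter, which lowers that SD. Sox2 thus had the same order in both regions, and its difference between hippocampus and neocortex did not pass in KQ mice (adjusted p = 0.201) or WT mice (adjusted p = 0.601). Igfbpl1, Eomes, Sox4, Mki67 and Top2a did not pass between regions either. Of these, Mki67 was lower in each WT hippocampus library than in each WT neocortex library, which was so for 16.8% of all genes tested. The widest regional interval was that of Eomes, with -0.25 ± 0.24 in KQ and -0.49 ± 0.27 in WT mice.

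No gene of the wider lists of this lineage passed between genotypes in the joint model, though the study's own test named Rnd2, Gad1 and Gad2 as lower in KQ. Of 27 genes of neural stem cells and radial glia, Sox2 among them, 13 were higher and 14 lower in the KQ hippocampus (median -0.029), and 11 higher and 16 lower in the KQ neocortex (median -0.056). Beside Sox2, which had the lowest p of the list in both regions, those with the lowest p were Thbs4, a secreted protein of stem cells and astrocytes (-0.34 ± 0.099, adjusted p = 0.15), and the receptor Notch2 (0.40 ± 0.12, adjusted p = 0.178) in the hippocampus, and Hes1, a target of Notch signalling (0.24 ± 0.068, adjusted p = 0.159), and Sox9 in the neocortex. The mean of this list was 0.13 to 0.23 in the KQ hippocampus and 0.17 to 0.30 in the WT hippocampus, and -0.052 to 0.060 in the KQ neocortex and 0.048 to 0.11 in the WT neocortex.

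Of 28 genes of intermediate progenitors and newborn neurons, which include 6 of the 10, 14 were higher and 14 lower in the KQ hippocampus (median -0.0041), and 13 higher and 15 lower in the KQ neocortex (median -0.052). The lowest p in both regions belonged to Rnd2, a small GTPase that guides the migration of newborn neurons, with -0.25 ± 0.064 in the hippocampus (adjusted p = 0.108) and -0.24 ± 0.060 in the neocortex (adjusted p = 0.106). Dpysl5, a cytoskeletal regulator of growing axons, followed with 0.15 ± 0.063 (adjusted p = 0.277) and 0.14 ± 0.059 (adjusted p = 0.301). Of 11 genes of the neuroblasts that travel to the olfactory bulb, many of which also mark mature interneurons, 6 were lower in the KQ hippocampus (median -0.0058) and all 11 in the KQ neocortex (median -0.18). None passed. Their mean was -0.38 to -0.15 in the KQ hippocampus and -0.33 to -0.22 in the WT hippocampus, and -0.073 to 0.091 in the KQ neocortex and 0.12 to 0.24 in the WT neocortex. The genes of GABA synthesis Gad1 (-0.23 ± 0.062, adjusted p = 0.15) and Gad2 (-0.30 ± 0.088, adjusted p = 0.173) led them in the neocortex, and Dlx6os1 differed by -0.14 ± 0.10 in the hippocampus (adjusted p = 0.557).

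Between regions the same lists gave more calls. The neuroblast list had 8 of 11 genes called lower and 0 higher in KQ mice and 10 of 11 lower and 0 higher in WT mice. The list of stem cell genes had 12 of 27 called higher and 3 lower in the KQ hippocampus, and 9 higher and 3 lower in the WT hippocampus. The list of progenitors and newborn neurons had 10 of 28 called higher and 7 lower in both genotypes. The 40 cell cycle genes had 2 called higher and 7 lower in KQ mice and 2 higher and 8 lower in WT mice, and the 3 Brinp genes had 3 called lower in KQ mice and 2 in WT mice. Over all genes tested, 17.2% were called higher and 18.2% lower in the KQ hippocampus, and 13.5% higher and 14.7% lower in the WT hippocampus.

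Markers of further cell types were counted in the same way. Of 10 markers of mature oligodendrocytes and 8 of microglia, all were lower in KQ in both regions without any call, with medians of -0.30 and -0.15 in the hippocampus and of -0.15 and -0.10 in the neocortex. Of 6 endothelial markers 3 were lower in the KQ hippocampus and 5 in the KQ neocortex. Of 6 ependymal markers none was lower in the KQ hippocampus and all 6 were in the KQ neocortex. Of 5 markers of Cajal-Retzius cells, early-born neurons of the cortical surface, 1 was lower in the KQ hippocampus and 2 in the KQ neocortex, and of 10 neocortex markers 8 and 4. None of these genes passed between genotypes, and their part in the values of the 10 genes was not tested.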

How the data were processed

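Per the labels and the study's methods, reads were trimmed (cutadapt), aligned to mm10 (STAR 2.5.2b) and quantified per transcript (Salmon), and the authors deposited variance-stabilized log2-like values (DESeq2 1.34.0, R 4.1.0) freed of sex and litter with limma. Each gene has a mean of 0 over the 6 KQ neocortex libraries, and 4383 of 24528 genes are at 0 in every library. Depth is unknown. The 17863 genes tested exclude those at 0 throughout or tied in all 3 libraries of a region, sex and litter.

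All 20 libraries were fitted with limma 3.58.1 (R 4.3.3): 4 groups, sex and litter, the last 2 fitted again to count the degrees of freedom their removal had spent (11 were left). P-values were adjusted after Benjamini and Hochberg (0.05). Each p-value sets a difference between groups against the spread between these libraries, estimated jointly over the 4 groups. The fit was tested on artificial values before use. Figures were drawn with matplotlib 3.10.9.

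The 10 genes, the lists of other genes and the tests were chosen with earlier results of these data known. All 10 are named, and from each list the genes that passed between genotypes, or else, beside the 10, the 2 with the lowest p in each region. Some further markers of astrocytes and oligodendrocyte precursors are given beside those. A gene that this rule names in 1 list is not reported here. Alternatives are given in the closing section. Sequences are from GENCODE transcripts of GRCm38.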

Additional observations from a re-analysis of the deposited data

Results flagged for a closer look

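Of 40 sets of values (10 genes in 4 groups), 2 held a library far from the others of its group, where the 95% critical value used by itself gives about 1 in 20 such sets by chance. That rate is for independent values. The removal of sex and litter tied these values to each other, so the rate is only a guide. Neurod1 had 0.513 in WT hippocampus female 1, against 0.439 to 0.447 in the other 3 WT hippocampus libraries, which lay very close together. Eomes had 0.650 in WT neocortex female 1, against -0.0978 to 0.106 in the other 4 WT neocortex libraries. The 0.106 belongs to WT male 1, whose value is the mean of its group, female 1 included, and carries no information of its own.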

How the results depend on the processing

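The deposited values had litter and sex removed already, so a fit without litter as a fixed term counts degrees of freedom that the removal spent, and it called many more genes. In the hippocampus the number of genes called between genotypes, 69 in the joint model, was 2077 with group only, 1584 with sex without litter, 2114 with litter as a random effect, 0 with the region fitted alone and 38 with the replicate block. In the neocortex, with 40 in the joint model, it was 2381, 1812 and 2396 in the same 3 fits, 7 with the region fitted alone, 23 with no filter, 66 with the stricter filter and 24 without the 3 libraries of litters 1 and 2 (an alternative chosen after seeing the data). With group only, 7562 genes were called between regions in WT mice and 69 in the difference of the KQ effect, against 5041 and 0 in the joint model. Sox2 and Brinp1 passed between genotypes in both regions in the 3 fits without litter as a fixed term (adjusted p from 3.65e-04 to 0.00541), and Sox2 passed in the neocortex with robust eBayes (0.0468) and with the stricter filter (0.0494). Over the 10 planned fits with all libraries the adjusted p ran from 0.00306 to 0.280 in the hippocampus and 3.65e-04 to 0.102 in the neocortex for Sox2, and from 0.00130 to 0.277 and 7.98e-04 to 0.274 for Brinp1. In WT mice the regional differences in Sox11 and Brinp1 passed in those 3 fits too, Sox11 passed with the replicate block (0.0313) and with female mice as a random effect (0.0365), and Sox4 passed with group only (0.0338), with sex without litter (0.0431) and with litter as a random effect (0.0409). The cause of these changes beyond the degrees of freedom was not tested.

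Without 1 library each, the count between genotypes ran from 8 (without KQ hippocampus female 1) to 137 (without KQ neocortex male 1) in the hippocampus, and from 7 (without KQ neocortex female 1) to 123 (without WT hippocampus female 2) in the neocortex. That between regions ran from 4978 to 6539 in KQ and from 3653 to 5882 in WT mice, and that of the difference was 0 throughout. Among these 20 fits, that without WT neocortex male 1 repeats the joint model. Those without KQ female 2 of either region are the same fit.

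Deviations of same-numbered KQ and WT libraries correlated by r from -0.60 to 0.12, so these numbers were not taken to pair the genotypes. Those of same-numbered libraries of the regions correlated by r from -1 (KQ female 2, set by the removal of litter) to 0.72 (WT female 2), and the random effect of female mice had a correlation of 0.274. For male 1 of each genotype the labels give different litters in the regions, so its libraries are from different mice. Whether the other numbers mark the same mouse is not known. With the replicate block the KQ effect on Dcx in the hippocampus was -0.051, and the regional differences of Sox4 in KQ mice and Igfbpl1 in WT mice were -0.0079 and -0.13.

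Signs turned only for values that passed in no fit. With female mice as a random effect, Mki67 was 0.013 between genotypes in the neocortex, the regional differences of Sox4 in KQ mice and Igfbpl1 in WT mice were -0.0016 and -0.00504, and the difference of the KQ effect on Sox11 was -0.013. With each library centred on its median, the regional difference of Sox4 in KQ mice was -0.0056 and the difference of the KQ effect on Sox11 was -0.0017. Without the 3 libraries of litters 1 and 2, Eomes was 0.025 between regions in KQ mice and the difference of the KQ effect on Sox11 was -0.0017. Without 1 library each, the KQ effect in the hippocampus ran from -0.055 to 0.061 for Dcx, -0.027 to 0.056 for Sox4, -0.15 to 0.12 for Igfbpl1, -0.13 to 0.31 for Eomes and -0.058 to 0.076 for Mki67, and in the neocortex from -0.22 to 0.068 for Eomes and -0.034 to 0.022 for Mki67. The regional difference ran from -0.047 to 0.045 for Sox4, -0.025 to 0.28 for Igfbpl1 and -0.42 to 0.025 for Eomes in KQ mice, and from -0.097 to 0.078 for Igfbpl1 and -0.024 to 0.11 for Sox2 in WT mice. The difference of the KQ effect ran from -0.068 to 0.085 for Sox11, -0.034 to 0.27 for Igfbpl1, -0.043 to 0.056 for Brinp1, -0.066 to 0.11 for Mki67 and -0.023 to 0.13 for Top2a.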
